A study of Mus musculus with 18 samples.

Results

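The neutrophil granule genes examined here are *Mpo*, *Elane*, *Ngp*, *Ltf*, *Lcn2*, *Camp*, *Mmp8*, *Mmp9*, *S100a8* and *S100a9*, measured by bulk RNA-Seq in cultured mouse bone marrow-derived macrophages (BMDMs). They are 10 of the 31053 genes of the count table, found by gene name, and all 10 were listed. They were chosen for their counts and CPM (counts as a share of the library, times 1e+06) per mouse over the groups compared below, so their levels and differences are a description. Where the number of members past a threshold is printed, it stands beside the share or number of all genes, except with DESeq2. Nothing is read from these numbers. After a filter on low counts, 12290 genes were tested, 8 of the 10 among them, and *Elane* and *Mmp9* were not. Since a gene can pass that filter through the group in which it is high, the 8 tested genes do not stand for all 10.

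Cells came from mice with a deletion of *Slc7a7* in myeloid cells (LysM-Cre *Slc7a7*-/-, called knockout) and from control mice (*Slc7a7*+/+, called wild type), on a C57Bl/6J background and 12 weeks old, with 3 mice of each genotype. *Slc7a7* encodes a transporter of cationic and neutral amino acids. LysM-Cre is driven by the *Lyz2* locus, which is active in neutrophils and their precursors as well as in macrophages. Marrow cells were cultured for 7 days with macrophage colony-stimulating factor or L-cell conditioned medium after lysis of red cells, with no sort for cell type named in the methods. Cells of each mouse, seeded at 100000, were then given vehicle (PBS, called control), acetylated LDL (AcLDL, 50 µg/mL) or oxidised LDL (OxLDL, 100 µg/mL) for 24 h. The 18 libraries thus form 6 groups of 3 mice, and each mouse gave 1 library per medium. Wild type libraries carry sample numbers from 1 to 9 and knockout libraries from 10 to 18, so genotype and sample number cannot be told apart. Whether the wild type mice carried Cre is not stated in the methods, so loss of *Slc7a7* and presence of Cre cannot be told apart either.

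Neutrophils form their granules in succession while they mature in the marrow. Promyelocytes make the azurophil granules, which hold myeloperoxidase and serine proteases. Myelocytes then make the specific granules with lactoferrin and other antimicrobial proteins, and later stages make the gelatinase granules. S100A8 and S100A9 are the main calcium-binding proteins of neutrophil cytosol, and monocytes also make them. The genes are transcribed during maturation under factors of the C/EBP family and PU.1, and marrow, the source of a BMDM culture, holds the precursors that transcribe the granule genes most. Macrophages themselves can express *Lcn2* and *Mmp9* on stimulation.

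Promoter sequences are shown for the 5 members on which the results below turn, 4 whose levels followed each other across libraries (*Ngp*, *Ltf*, *S100a8*, *S100a9*) and *Mmp8*, which did not follow them. Each is the 250 bases before the gene start in RefSeq (build GRCm38.p6), written 5′ to 3′ on the strand of the gene, and capitals mark matches to the motifs searched. The windows are chr9:110419558-110419807 (+ strand) for *Ngp*, chr9:111019042-111019291 (+) for *Ltf*, chr9:7558179-7558428 (+) for *Mmp8*, chr3:90668821-90669070 (+) for *S100a8* and chr3:90695722-90695971 (− strand) for *S100a9*.
Ngp: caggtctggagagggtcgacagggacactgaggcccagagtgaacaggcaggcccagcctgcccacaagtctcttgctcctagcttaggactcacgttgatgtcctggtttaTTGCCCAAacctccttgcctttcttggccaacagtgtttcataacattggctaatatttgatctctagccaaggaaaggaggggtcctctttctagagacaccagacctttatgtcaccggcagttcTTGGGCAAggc
Ltf: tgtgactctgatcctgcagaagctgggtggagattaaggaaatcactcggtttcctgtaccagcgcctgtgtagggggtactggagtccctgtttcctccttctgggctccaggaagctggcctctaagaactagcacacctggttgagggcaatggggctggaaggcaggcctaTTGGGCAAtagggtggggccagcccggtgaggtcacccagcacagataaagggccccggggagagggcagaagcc
Mmp8: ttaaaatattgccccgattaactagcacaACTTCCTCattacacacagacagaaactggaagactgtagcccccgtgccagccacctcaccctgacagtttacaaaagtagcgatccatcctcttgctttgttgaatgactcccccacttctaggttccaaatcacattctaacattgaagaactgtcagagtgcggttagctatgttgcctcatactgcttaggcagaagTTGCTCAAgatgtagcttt
S100a8: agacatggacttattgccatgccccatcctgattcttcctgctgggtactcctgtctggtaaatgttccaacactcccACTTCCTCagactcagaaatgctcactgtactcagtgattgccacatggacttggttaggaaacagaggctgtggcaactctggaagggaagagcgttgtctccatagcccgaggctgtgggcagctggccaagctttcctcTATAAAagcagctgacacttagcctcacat
S100a9: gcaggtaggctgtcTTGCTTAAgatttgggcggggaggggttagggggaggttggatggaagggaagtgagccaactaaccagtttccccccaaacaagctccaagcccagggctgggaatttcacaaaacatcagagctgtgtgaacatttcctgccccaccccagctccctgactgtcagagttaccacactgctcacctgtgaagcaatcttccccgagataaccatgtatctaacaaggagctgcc
The motifs were a C/EBP core (TTGCNNAA or, on the other strand, TTNNGCAA), a PU.1 core (GAGGAAGT or ACTTCCTC) and a TATA box (TATAAA or TTTATA). The C/EBP core was found in 5 of the 9 members with a promoter in RefSeq's table (*Ngp*, *Ltf*, *Lcn2*, *Mmp8* and *S100a9*) and in 9.56% of all 32851 promoters of that length. *Ngp* holds it in both orientations, 11 and 138 bases upstream of the start, and *Mmp8* holds it 19 bases upstream. The PU.1 core was found in 4 of the 9 (*Mpo*, *Elane*, *Mmp8* and *S100a8*), against 2.44% of all promoters. The TATA box was found in 1 of the 9, *S100a8*, at 30 bases upstream, and in 12.4% of all promoters. Distances are from the RefSeq start, which can differ from the start of the gene positions given below. The windows of *Ngp*, *Ltf* and *S100a8* thus reach past the first base of those positions. These are matches of letters and were not tested for binding. *Mmp9* is named only.

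Libraries held between 1043492 and 1768816 counts (median 1466145), so that the 3 counts a library may hold unseen behind a 0 amount to 1.67 to 2.85 CPM. *Slc7a7*, the targeted gene, lay between 11.1 and 29.3 CPM in the 9 wild type libraries and between 2.22 and 10.9 CPM in the 9 knockout libraries, with no overlap. The labelled cell type was checked by 9 macrophage markers, all of which were tested, and their summed level was 3337 to 6605 CPM. The highest were *Csf1r* (mean 2234 CPM), *Adgre1* (1493 CPM) and *Cd68* (575.6 CPM). Of 4 defining markers of neutrophils, *Ly6g* and *Retnlg* were at 0 in all 18 libraries, and *Cxcr2* had 6 counts in all with 0 in 14 libraries. *Csf3r*, the G-CSF receptor, was the exception, with 13 to 41 counts per library. The transcripts described here were therefore measured in macrophage cultures in which 2 of these 4 markers were at 0 throughout. A wider list of 19 genes of mature neutrophils, given below, summed to 378.1 to 744.5 CPM. It was led by *Clec4d* (mean 467.6 CPM), which macrophages also express.

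Together the 10 members took 78 to 403 counts per library, or 43.3 to 338.7 CPM. Of their 3718 counts over all libraries, *S100a9* held 27.0%, *Mmp8* 20.5%, *Ngp* 20.1%, *Ltf* 12.2% and *S100a8* 11.6%, but the order differed between groups. *S100a9* was above *Mmp8* in the 3 wild type groups and the knockout controls, and *Mmp8* was above *S100a9* in knockout cells with AcLDL (30.4% and 26.5%) and with OxLDL (31.6% and 25.2%). *Ngp* was above *Mmp8* in wild type controls (19.2% and 14.4%), in wild type cells with AcLDL (24.2% and 10.9%) and in knockout controls (25% and 13.6%). The other 5 shared the rest, with *Lcn2* at 4.90%, *Mpo* at 1.8%, *Camp* at 1.21%, *Mmp9* at 0.403% and *Elane* at 0.242%. Per kilobase of exon, which allows levels to be compared between genes, the mean over the 18 libraries was 78.4 CPM per kb for *S100a9*, 24.9 for *S100a8*, 24.5 for *Ngp*, 12.5 for *Mmp8* and 5.26 for *Ltf*. Cytosolic S100 transcripts and specific granule transcripts thus made up most of the signal, and azurophil transcripts stood lowest beside *Mmp9*, at 0.749 CPM per kb for *Mpo* and 0.339 for *Elane*. By group, the summed level of the 10 was 192.6 to 338.7 CPM in wild type cells with OxLDL, 110.2 to 239.1 CPM with AcLDL and 107.2 to 156.9 CPM in control medium. In knockout cells it was 63.8 to 163.1 CPM in control medium, 43.3 to 109.5 CPM with AcLDL and 97.2 to 152.0 CPM with OxLDL. In bulk libraries, fewer cells of a type and less RNA per cell cannot be told apart.

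**Figure D1:**
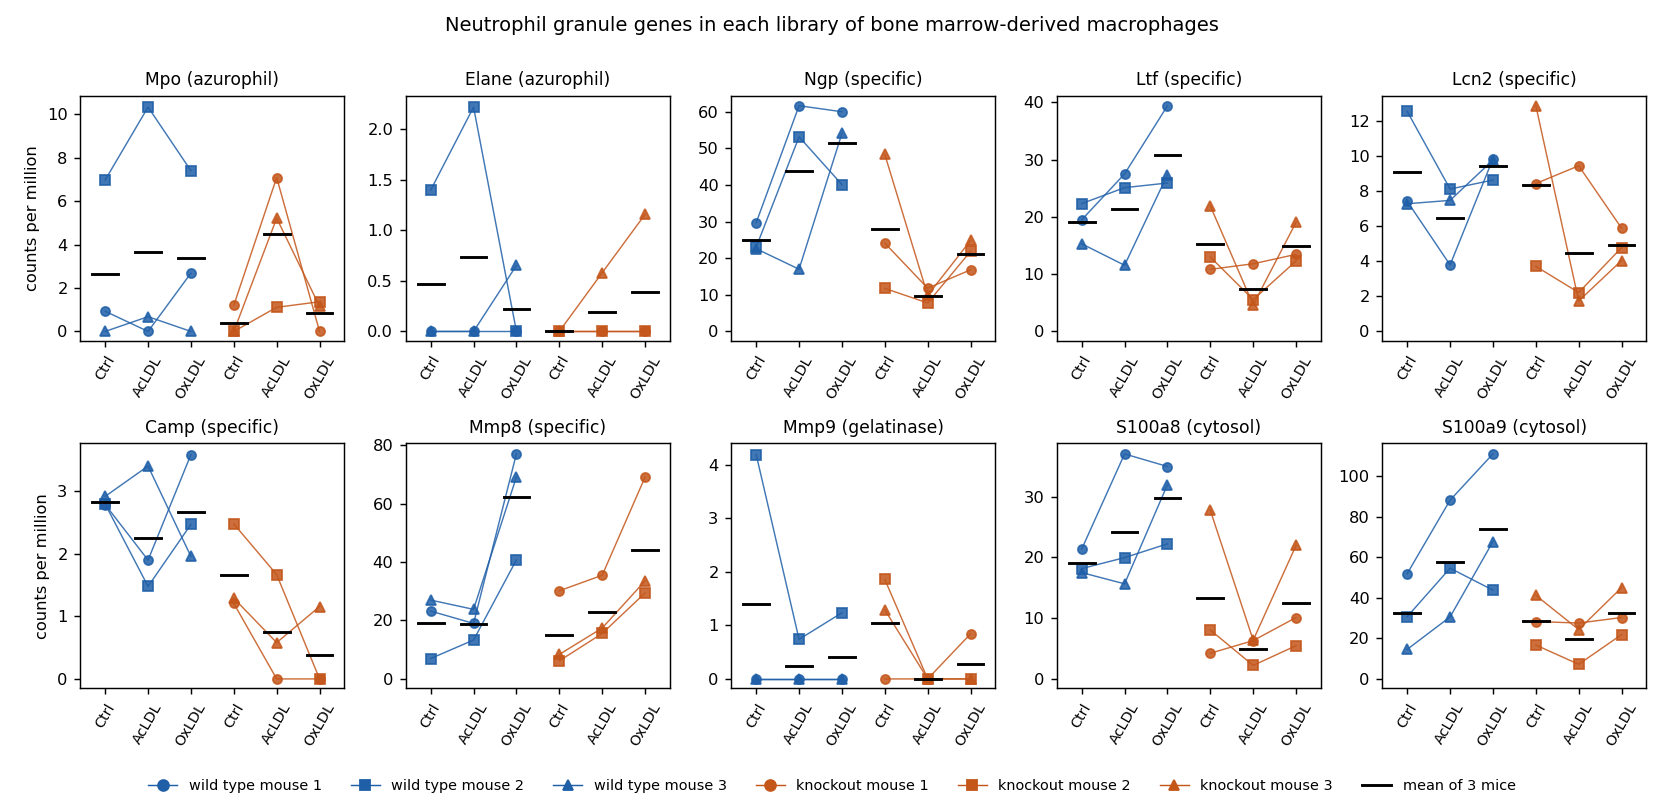
Level of each member in the 18 libraries, with 1 panel per gene and its own axis in CPM (TMM-scaled), the 6 groups along the horizontal axis, points for libraries, thin lines joining the libraries of 1 mouse and black bars for the group mean. *Mmp8* is high with OxLDL in both genotypes, with group means of 62.3 and 44.0 CPM, while *Ngp*, *Ltf*, *S100a8* and *S100a9* have their highest means in wild type cells with OxLDL and their lowest in knockout cells with AcLDL.

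*Mpo* (ENSMUSG00000009350, chr11:87793581-87804413, + strand, GRCm38) encodes myeloperoxidase, the enzyme of azurophil granules that forms hypochlorous acid. Its counts in the wild type mice 1, 2 and 3 were 1, 10 and 0 in control medium, 0, 14 and 1 with AcLDL, and 3, 12 and 0 with OxLDL. In the knockout mice they were 2, 0 and 0 in control medium, 9, 2 and 9 with AcLDL, and 0, 2 and 2 with OxLDL. Wild type mouse 2 was thus high in every medium, while among knockout libraries the highest counts were with AcLDL. Summed over the 3 mice, knockout cells had 20 counts with AcLDL and 2 in control medium, a ratio of 10.1. Without mouse 2, the other 2 wild type mice held 1, 1 and 3 counts in control medium, with AcLDL and with OxLDL. By gene position, *Mpo* overlaps *Gm11505* on the opposite strand. Overlap of their exons was not looked at, and the strand setting of the counting is not given in the sources used here. Whether reads of *Gm11505* were counted for *Mpo* is therefore not known.

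*Elane* (ENSMUSG00000020125, chr10:79886247-79888215, +) encodes neutrophil elastase, a serine protease of the same granules. It had 9 counts in all, with 0 in 13 of 18 libraries. Of these, 5 were from wild type mouse 2, with 2, 3 and 0 counts in control medium, AcLDL and OxLDL. No library held more than the 3 counts that a 0 allows, so no difference between groups was detectable at this depth.

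*Ngp* (ENSMUSG00000032484, chr9:110419747-110423012, +) encodes neutrophilic granule protein, a cystatin-related protein of specific granules. In the wild type mice 1, 2 and 3, its level was 29.7, 23.0 and 22.6 CPM in control medium, 61.7, 53.2 and 17 CPM with AcLDL, and 60.03, 40.1 and 54.1 CPM with OxLDL. In the knockout mice, its level was 24.1, 11.8 and 48.4 CPM in control medium, 11.8, 7.78 and 9.86 CPM with AcLDL, and 16.8, 21.9 and 24.9 CPM with OxLDL. All 3 wild type libraries with OxLDL were above all 3 wild type controls, whereas with AcLDL only mice 1 and 2 were higher than their own control. All 3 knockout libraries with AcLDL were below their own controls, and the knockout libraries were below all wild type libraries of the same medium with AcLDL and with OxLDL. In control medium the genotypes overlapped, with 25.1 ± 3.99 CPM in wild type and 28.1 ± 18.6 CPM in knockout cells (mean ± SD, n = 3). The order of group means ran from wild type with OxLDL (51.4 ± 10.2 CPM) and with AcLDL (44.0 ± 23.7 CPM), through knockout control, wild type control and knockout with OxLDL (21.2 ± 4.06 CPM), to knockout with AcLDL (9.82 ± 2.02 CPM). Neighbours in that order overlapped, except the last pair.

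*Ltf* (ENSMUSG00000032496, chr9:111019271-111042767, +) encodes lactoferrin, the iron-binding protein that marks specific granules. In the wild type mice, its level was 19.5, 22.3 and 15.3 CPM in control medium, 27.5, 25.1 and 11.6 CPM with AcLDL, and 39.4, 25.9 and 27.4 CPM with OxLDL. In the knockout mice, its level was 10.8, 13 and 21.9 CPM in control medium, 11.8, 5.55 and 4.64 CPM with AcLDL, and 13.5, 12.3 and 19.1 CPM with OxLDL. As for *Ngp*, wild type libraries with OxLDL stood above all wild type controls and above all knockout libraries with OxLDL. With AcLDL, the genotypes of *Ltf* overlapped by 1 pair of libraries, wild type mouse 3 and knockout mouse 1. The order of group means was wild type with OxLDL (30.9 ± 7.41 CPM), with AcLDL and in control medium, then knockout in control medium, with OxLDL and with AcLDL (7.34 ± 3.91 CPM), and here too only the last pair did not overlap.

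*Lcn2* (ENSMUSG00000026822, chr2:32384633-32388252, −) encodes lipocalin-2, which binds bacterial siderophores. Its counts ranged from 3 to 20 per library. Its group means were 9.09 ± 3.01, 6.47 ± 2.34 and 9.43 ± 0.680 CPM in wild type cells (control, AcLDL and OxLDL) and 8.35 ± 4.59, 4.47 ± 4.32 and 4.91 ± 0.929 CPM in knockout cells. *Lcn2* was thus close to level between control and OxLDL in wild type cells, and only with OxLDL were all knockout libraries below all wild type libraries. *Camp* (ENSMUSG00000038357, chr9:109847379-109849617, −) encodes the cathelicidin precursor, an antimicrobial peptide of specific granules. Its counts ranged from 0 to 5 per library. The sums over 3 libraries were 11, 9 and 11 in wild type cells and 8, 4 and 2 in knockout cells. With OxLDL the knockout to wild type ratio was 0.177. *Camp* was at or below the level of 3 counts in 12 of the 18 libraries.

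*Mmp8* (ENSMUSG00000005800, chr9:7558456-7568485, +) encodes neutrophil collagenase, a matrix metalloproteinase stored in specific granules. In the wild type mice, its level was 23.2, 6.98 and 27.0 CPM in control medium, 19.0, 13.3 and 23.8 CPM with AcLDL, and 77.0, 40.7 and 69.1 CPM with OxLDL. In the knockout mice, its level was 30.1, 6.19 and 8.38 CPM in control medium, 35.5, 15.5 and 17.4 CPM with AcLDL, and 69.0, 29.4 and 33.5 CPM with OxLDL. In every mouse of both genotypes the OxLDL library was above the control library of the same mouse. The median of these differences within a mouse was 1.67 on the log2 CPM scale in wild type and 1.84 in knockout mice. Among knockout libraries the groups still overlapped, because the control of mouse 1 (30.1 CPM) was above the OxLDL library of mouse 2 (29.4 CPM). Group means ran from 62.3 ± 19.1 CPM in wild type and 44.0 ± 21.8 CPM in knockout cells with OxLDL down to 14.9 ± 13.2 CPM in knockout controls, and all neighbours in the order overlapped. As a share of the members' counts, *Mmp8* went from 14.4% in wild type controls to 23.6% with OxLDL, and from 13.6% in knockout controls to 30.4% with AcLDL and 31.6% with OxLDL.

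*Mmp9* (ENSMUSG00000017737, chr2:164940780-164955850, +) encodes gelatinase B, the enzyme for which gelatinase granules are named. It had 15 counts in all and was at 0 in 12 of 18 libraries. Wild type mouse 2 held 9 of the 15, with 6, 1 and 2 counts in control medium, AcLDL and OxLDL, and the other wild type mice had none. Of the gelatinase inhibitors and the other gelatinase, *Timp2* was the only gene above 1 CPM on average (mean 125.5 CPM), with *Timp3* at 0.786 CPM and *Timp1* at 0.279 CPM. Of the 2 genes of that list that were tested, 0 passed edgeR's quasi-likelihood test or DESeq2 in any of the 9 comparisons. In these, 0 to 1 had an unadjusted p under 0.05.

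*S100a8* (ENSMUSG00000056054, chr3:90668978-90670035, +) and *S100a9* (ENSMUSG00000056071, chr3:90692632-90695721, −) encode the subunits of calprotectin and lie 22.6 kb apart with 0 genes between them. In the wild type mice, the level of *S100a8* was 21.4, 18.1 and 17.5 CPM in control medium, 37.0, 19.9 and 15.6 CPM with AcLDL, and 34.9, 22.2 and 31.9 CPM with OxLDL. In the knockout mice, it was 4.22, 8.05 and 27.7 CPM in control medium, 6.30, 2.22 and 6.38 CPM with AcLDL, and 10.1, 5.47 and 21.97 CPM with OxLDL. All wild type libraries with AcLDL were above all knockout libraries with AcLDL, and the lowest wild type library with OxLDL (22.2 CPM) stood just above the highest knockout library (21.97 CPM). Knockout mouse 3 in control medium lay above all wild type controls.

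For *S100a9*, the level in the wild type mice was 52.0, 30.7 and 14.6 CPM in control medium, 88.2, 54.7 and 30.6 CPM with AcLDL, and 111.1, 43.8 and 67.8 CPM with OxLDL. In the knockout mice, the level of *S100a9* was 28.3, 16.7 and 41.3 CPM in control medium, 27.6, 7.22 and 24.4 CPM with AcLDL, and 30.3, 21.9 and 45.1 CPM with OxLDL. Each wild type mouse was higher with AcLDL than in control medium and each knockout mouse was lower, with median differences of 0.81 and -0.73 on the log2 CPM scale. With OxLDL, all 3 mice of each genotype were higher than their own control, by a median of 1.08 in wild type and 0.12 in knockout mice. Wild type mouse 1 had the highest *S100a9* in each medium. The means of *S100a9* with OxLDL were 74.3 ± 34.1 CPM in wild type and 32.4 ± 11.7 CPM in knockout cells, and their libraries overlapped. All neighbours in the order of the group means overlapped for both S100 genes. The 6 other S100 genes listed here, which macrophages express, were led by *S100a4* (mean 662.2 CPM), *S100a6* (409.9 CPM) and *S100a10* (271.5 CPM), and 0 of 6 passed edgeR's test or DESeq2 in any of the 9 comparisons, with 0 at an unadjusted p under 0.05.

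Each LDL was then compared with control medium within a genotype, by the quasi-likelihood test of edgeR (threshold 0.05, Benjamini-Hochberg adjusted over the 12290 genes), to set the members' fold changes beside those of all genes. In wild type cells with AcLDL, *S100a9* and *Ngp* had the highest fitted log2 fold changes among members with more than 3 counts in every library, at 0.84 (SE 0.45) and 0.79 (SE 0.39), and *Mmp8* was at 0.00 (SE 0.52). No tested member of the 8 passed, beside 0.472% of all genes. An unadjusted p under 0.05 was found for 0 of the 8, beside 901 of the 12290 genes. In wild type cells with OxLDL, *Mmp8* was 3.28-fold higher (log2 fold change 1.71, SE 0.46), *S100a9* was 2.30-fold higher (1.20, SE 0.44) and *Ngp* 2.05-fold higher (1.03, SE 0.38), with *Ltf* at 0.68 (SE 0.32) and *S100a8* at 0.64 (SE 0.46). The test was passed by 0 of the 8, beside 1.34% of all genes, while 4 had an unadjusted p under 0.05, beside 1233 of the 12290 genes. The libraries of 4 of the 8 (*Ngp*, *Ltf*, *Mmp8* and *S100a8*) were all above the control libraries, which held for 5.67% of all genes. *Lcn2* (0.03) and *Camp* (-0.12) were near 0.

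In knockout cells with AcLDL, the specific granule and S100 transcripts other than *Mmp8* had negative fitted values against control medium, with *Ngp* 2.88-fold lower (log2 fold change -1.52, SE 0.45), *S100a8* at -1.43 (SE 0.60), *Ltf* at -1.11 (SE 0.39), *Lcn2* at -1.01 (SE 0.52), *Camp* at -0.94 (SE 0.87) and *S100a9* at -0.58 (SE 0.49). Without the knockout control library of mouse 3, *Ngp* was at -0.89 and *S100a8* at -0.33. *Mmp8*, at 0.55 (SE 0.50), went the other way, as did *Mpo*, at 3.13 (SE 1.42) on 20 counts with AcLDL and 2 in control medium. With this medium 0 of the 8 passed, beside 0.521% of all genes, and 4 had an unadjusted p under 0.05, beside 926 of the 12290 genes. In knockout cells with OxLDL, *Mmp8* was 2.85-fold higher (1.51, SE 0.47), and at 2.56 without the knockout control library of mouse 1. *S100a9* (0.20), *Ltf* (0.00) and *S100a8* (-0.02) were near 0, and *Ngp* was at -0.38 (SE 0.40). With 1 library left out, *S100a8* ranged from -0.77 to 1.07 and *Ngp* from -0.73 to 0.26, and both highest values were without the knockout control library of mouse 3. None of the 8 passed, beside 2.32% of all genes, and 1 had an unadjusted p under 0.05, beside 1510 of the 12290 genes. DESeq2 also called 0 of the 8 in each of these 4 comparisons. The comparisons of a genotype share its control libraries.

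Since the media were given to cells of the same mice, a fit with the mouse as a replicate block was also made. With the block, the fitted log2 fold changes of the members were close to those above and most standard errors were smaller. For *Mmp8* with OxLDL they were 1.74 (SE 0.22) in wild type and 1.62 (SE 0.23) in knockout cells. For *Ngp* they were 1.04 (SE 0.28) in wild type cells with OxLDL and -1.49 (SE 0.34) in knockout cells with AcLDL.

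**Figure D2:**
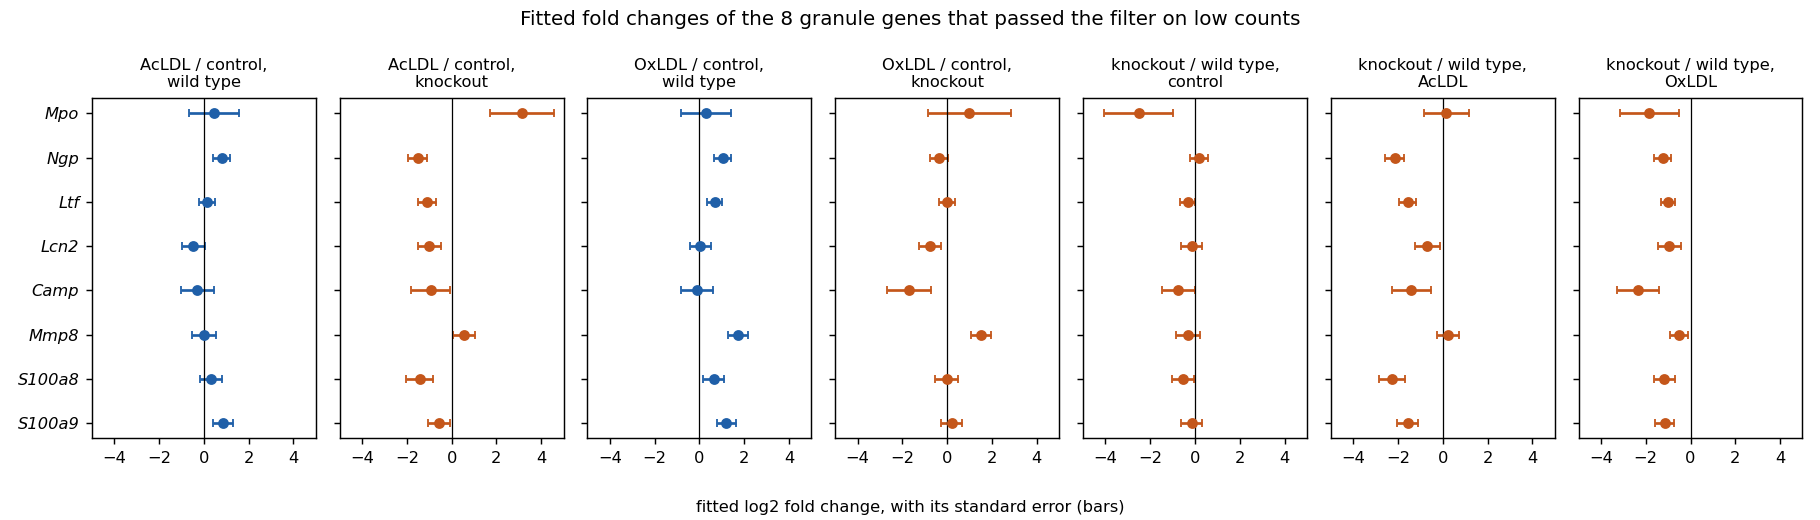
Fitted log2 fold change of the 8 tested members with its standard error (horizontal bars) in the comparisons of media and of genotypes, without the replicate block. *Mmp8* lies to the right of 0 with OxLDL in both genotypes (1.71 and 1.51), and *Ngp*, *Ltf*, *S100a8* and *S100a9* lie to the left of 0 in knockout against wild type cells with AcLDL and with OxLDL.

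Knockout cells were compared with wild type cells within each medium. In control medium, *Ngp* was at 0.17 (SE 0.40) and the other 7 tested members had negative log2 fold changes, from -0.14 for *S100a9* to -2.52 (SE 1.56) for *Mpo*. The test was passed by 0 of the 8, beside 0.00814% of all genes, and 0 had an unadjusted p under 0.05, beside 491 of the 12290 genes. Without the knockout control library of mouse 3, the value for *Ngp* changed sign. *Camp* was the only 1 of the 8 whose knockout libraries were all below the wild type libraries, which held for 4.39% of all genes, at counts of 2 to 4 in knockout and 3 to 4 in wild type libraries.

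With AcLDL, *S100a8* was 4.81-fold lower in knockout cells (log2 fold change -2.27, SE 0.57), *Ngp* 4.43-fold lower (-2.15, SE 0.43), *Ltf* 2.98-fold lower (-1.57, SE 0.39) and *S100a9* 2.95-fold lower (-1.56, SE 0.47). *Mmp8* was at 0.23 (SE 0.50) and *Lcn2* at -0.69 (SE 0.55). None of the 8 passed with edgeR, beside 0.0163% of all genes, and 4 had an unadjusted p under 0.05, beside 601 of the 12290 genes. DESeq2 called 1 of the 8, and its share of all genes is not given here. The knockout libraries of 3 of the 8 (*Ngp*, *S100a8* and *S100a9*) were all below the wild type libraries, beside 4.78% of all genes. With OxLDL, all 8 were at negative values, with *Ngp* at -1.25 (SE 0.38), *S100a8* at -1.18 (SE 0.47), *S100a9* at -1.15 (SE 0.42), *Ltf* at -1.005 (SE 0.33) and *Mmp8* at -0.52 (SE 0.40). None of the 8 passed, beside 0.00814%, 5 had an unadjusted p under 0.05, beside 587 of the 12290 genes, and DESeq2 called 0. Of the 6 monocyte markers, all were at negative values in the same comparison, with a median of -1.03, against -0.01 over all genes. That median rests in part on genes of few counts, since *Ly6c2*, *Plac8* and *Fn1* had 30, 14 and 83 counts over the 18 libraries. *F13a1* was at -1.98 (SE 0.45), *Vcan* at -0.49 (SE 0.28) and *Ccr2* at -0.26 (SE 0.21), and 0 of the 6 passed edgeR's test. The monocyte median was -0.37 with AcLDL and -0.43 in control medium, and the part of monocytes in the members' differences was not tested. The knockout libraries of 5 of the 8 (*Ngp*, *Ltf*, *Lcn2*, *Camp* and *S100a8*) were all below the wild type libraries, beside 4.80% of all genes.

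The responses to an LDL were then set against each other between the genotypes. For AcLDL, the knockout response was lower than the wild type response by 2.31 on the log2 scale for *Ngp* (-2.31, SE 0.59), and the differences were -1.75 (SE 0.77) for *S100a8*, -1.42 (SE 0.66) for *S100a9* and -1.25 (SE 0.52) for *Ltf*. Without the knockout control library of mouse 3, *S100a8* was at -0.65 and *Ngp* at -1.68. *Mmp8* was at 0.55 (SE 0.73). For OxLDL, the differences were -1.41 (SE 0.55) for *Ngp*, -1.01 (SE 0.64) for *S100a9* and -0.20 (SE 0.67) for *Mmp8*. None of the 8 passed for AcLDL, beside 0% of all genes, and none for OxLDL, beside 0% of all genes. At an unadjusted p under 0.05 there were 4 and 1 members, among 327 and 338 of all genes, and DESeq2 called 0 of the 8 in both. With the replicate block, the difference for *Ngp* with AcLDL was -2.23 (SE 0.45).

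Levels are given next by mouse, as a description, since the members were chosen on their values per mouse. Pooled over its 3 libraries, wild type mouse 2 had 8.17 CPM of *Mpo* (exact Poisson 95% interval 5.72 to 11.3), whereas mice 1 and 3 had 1.23 CPM (0.336 to 3.15) and 0.229 CPM (0.00579 to 1.27). *Elane* and *Mmp9* were also highest in that mouse, with 5 and 9 counts. *Ngp*, *Ltf* and *Lcn2* did not set mouse 2 apart in this way, with 38.6 CPM of *Ngp* against 50.5 and 31.8 CPM in mice 1 and 3.

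The S100 genes followed another order of mice. *S100a9* was at 84.1 CPM (74.4 to 94.7) in wild type mouse 1, and at 42.9 and 38.6 CPM in mice 2 and 3. *S100a8* was at 18.4 CPM (14.8 to 22.5) in knockout mouse 3, and at 6.56 and 5.13 CPM in knockout mice 1 and 2. *Mmp8* was at 43.0 CPM (36.9 to 49.8) in knockout mouse 1, and at 16.6 and 20.2 CPM in knockout mice 2 and 3. Knockout mouse 3 was thus the highest knockout mouse for *Ngp*, *Ltf*, *S100a8* and *S100a9*, and knockout mouse 1 for *Mmp8*. These intervals cover counting error only, since reads without molecular identifiers are not independent molecules.

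**Figure D3:**
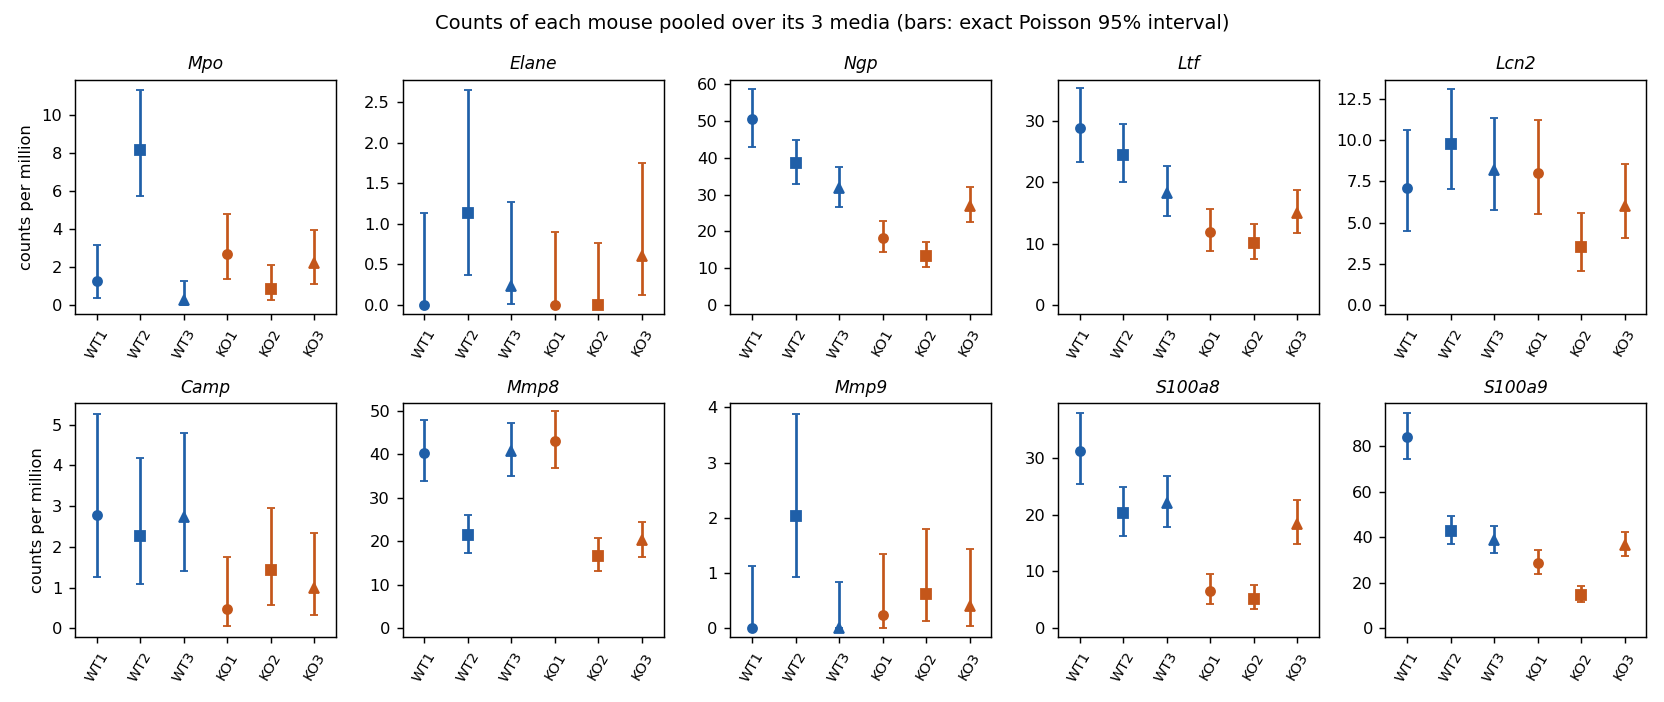
Level of each member in each of the 6 mice, pooled over its 3 libraries, in CPM on an axis of its own, with the exact Poisson 95% interval as an error bar. Wild type mouse 2 stands apart for *Mpo* (8.17 CPM), and wild type mouse 1 for *S100a9* (84.1 CPM).

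Across the 18 libraries, which come in threes from 6 mice, log2 CPM of *Ngp* and *Ltf* had a Pearson r of 0.90, *Ltf* and *S100a8* of 0.88, *Ngp* and *S100a9* of 0.85, *Ngp* and *S100a8* of 0.84, *S100a8* and *S100a9* of 0.82, and *Ltf* and *S100a9* of 0.81. With each group's mean taken out, so that only differences between mice of a group remain, the first 3 of these were 0.73, 0.69 and 0.71. *Mmp8* had r between -0.19 and 0.37 with the other members, and *Mpo* between -0.10 and 0.15. *Ngp* and *Ltf* lie 596.3 kb apart on chromosome 9 with 29 genes between them, and *Camp* lies 570.1 kb from *Ngp*, while *Mmp8* is 102278.9 kb from *Camp* on the same chromosome. The libraries share mouse, medium and depth, so these are descriptions and no p is given.

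**Figure D4:**
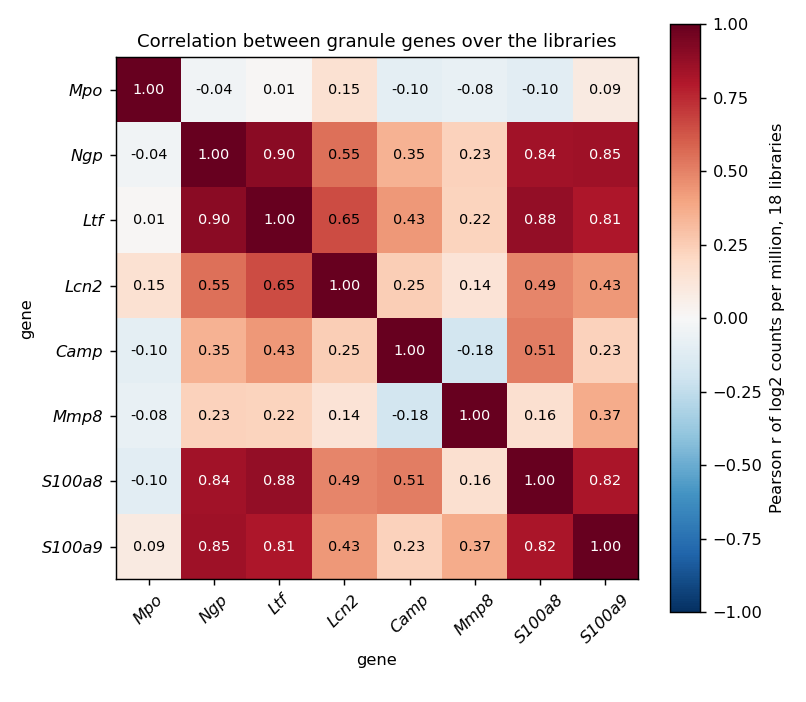
Pearson r between the log2 CPM of the 8 tested members over 18 libraries, with genes along both axes and colour and number giving r. *Ngp*, *Ltf*, *S100a8* and *S100a9* have r from 0.81 to 0.90 with each other, while *Mmp8* has at most 0.37 and *Mpo* at most 0.15 with any other member.

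Among 9825 other genes with a mean of at least 5 CPM, those with the pattern most like a member's were taken as the 3 with the highest r over the 18 libraries. For *Ngp* these were *Chil3* (r = 0.83), *Gm20300* (0.81) and *Cln3* (0.76), and for *Ltf* they were *Galk2* (0.81), *Chil3* (0.81) and *Mt1* (0.77). For *S100a8* they were *Galk2* (0.80), *Chil3* (0.77) and *Sgpl1* (0.74), and for *S100a9* they were *Chil3* (0.84), *Ipo5* (0.80) and *Tcn2* (0.79). *Chil3* encodes the chitinase-like protein Ym1, which neutrophil precursors and some macrophages express, and its level in wild type mice was 21.4, 18.1 and 11.7 CPM in control medium, 33.2, 24.4 and 8.84 CPM with AcLDL, and 37.6, 25.9 and 28.0 CPM with OxLDL. In knockout mice it was 18.1, 14.2 and 18.7 CPM in control medium, 11.8, 4.998 and 12.2 CPM with AcLDL, and 5.89, 8.90 and 20.2 CPM with OxLDL. The genes most like *Mmp8* were *Mthfs* (0.91), *Tns1* (0.88) and *Tmem154* (0.87), and those most like *Lcn2* were *Gna13* (0.76), *Car13* (0.75) and *Anxa6* (0.74). *Chil3* was thus among the 3 nearest genes of 4 members and not of *Mmp8* or *Lcn2*.

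A list of 45 other neutrophil genes, in sub-lists for azurophil, specific and gelatinase granules, for mature neutrophils and for transcription factors, was tested in the same fits, and 29 of them passed the filter. Of the 45, 25 are not shared with macrophages, of which 11 passed the filter, and of those 11 none passed edgeR's test or DESeq2 in any comparison, with 0 to 2 at an unadjusted p under 0.05 in edgeR's test. Their summed level was 27.8 to 60.4 CPM in the 18 libraries, with 35.7 to 60.4 CPM in wild type and 34.7 to 40.4 CPM in knockout controls, 40.1 to 50.3 CPM and 27.8 to 37.1 CPM with AcLDL, and 39.1 to 46.9 CPM and 37.0 to 47.2 CPM with OxLDL. The genotypes thus overlapped in this sum in control medium and with OxLDL. With AcLDL they did not, at 37.1 CPM at most in knockout and 40.1 CPM at least in wild type cells. Among all single genes tested, 4.78% were lower in knockout cells without overlap in that medium. *Csf3r* made up much of the sum (mean 19.6 CPM), and its genotypes overlapped with AcLDL (13.9 to 18.1 CPM in knockout and 17.1 to 21.4 CPM in wild type cells). *Olfm4*, another specific granule gene, had 20 counts in the wild type control of mouse 1 and 0 to 6 in the other 17 libraries. *Prtn3* and *Ctsg*, azurophil proteases beside *Elane*, had 16 and 3 counts in all.

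Genes of the list that passed are also expressed by macrophages. In wild type cells with OxLDL, *Spi1*, which encodes PU.1, fell by 0.65 on the log2 scale (SE 0.12, edgeR adjusted p = 0.00409), the only 1 of 29 that passed. In knockout cells with OxLDL, 3 of 29 passed and all fell, namely *Anxa1*, which encodes annexin A1, by 0.60 (SE 0.13, edgeR adjusted p = 0.0106), *Spi1* by 0.50 (SE 0.12, edgeR adjusted p = 0.0274) and *Ctsc*, which encodes the protease that activates elastase, by 0.58 (SE 0.16, edgeR adjusted p = 0.0488). Each of these 3 calls was lost without at least 1 of the 6 libraries. With AcLDL, 0 of 29 passed in either genotype, with 5 at an unadjusted p under 0.05 in each, and DESeq2 called 1 in each (*Spi1* in wild type and *Anxa1* in knockout cells).

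With the replicate block, 3 of 29 passed for AcLDL in wild type cells, beside 2.16% of all genes, and 5 for OxLDL, beside 4.39%. In knockout cells 4 passed for AcLDL, beside 2.50%, and 6 for OxLDL, beside 7.18%. For the difference of the responses 0 of 29 passed with the block in edgeR's test, beside 0.0407% of all genes with AcLDL and 0% with OxLDL, and 3 and 2 had an unadjusted p under 0.05. All of these fell except *Clec4d*, a myeloid C-type lectin, which rose with OxLDL in wild type cells (edgeR adjusted p = 0.00382, and 0.388 without the block, where its value was 0.41, SE 0.17). *Cybb*, a subunit of the phagocyte oxidase that specific granules carry, fell with the block in all 4 comparisons of an LDL with control. Between mice of a genotype, 9 of 29 passed, all of them genes that macrophages also express, beside 13% of all genes.

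Between the genotypes, *Lyz2* was the only 1 of 29 that passed, with -1.23 (SE 0.20, edgeR adjusted p = 0.0149) with AcLDL and -1.24 (SE 0.20, edgeR adjusted p = 0.0263) with OxLDL. *Lyz2* is the locus that carries Cre and encodes lysozyme, a granule protein of neutrophils and macrophages, at a mean of 17340 CPM. Its mean was 13230 CPM in knockout and 24240 CPM in wild type controls, 10900 and 25520 CPM with AcLDL, and 8971 and 21150 CPM with OxLDL. For this gene, loss of *Slc7a7* and presence of Cre at the locus cannot be told apart. In control medium 0 of 29 passed with edgeR, 1 had an unadjusted p under 0.05, and DESeq2 called *Lyz2*. For the difference between genotypes in the responses, 0 of 29 passed for either LDL, with 1 each at an unadjusted p under 0.05 and 0 by DESeq2. The median log2 fold change of the 29 in knockout against wild type cells was -0.17 in control medium, -0.30 with AcLDL and -0.02 with OxLDL, with medians of all genes near 0. The mean levels of the 3 highest genes of each sub-list were 17340 CPM for *Lyz2*, 1399 CPM for *Cybb* and 707.8 CPM for *Anxa1* among granule genes, 467.6 CPM for *Clec4d*, 27.1 CPM for *Mxd1* and 19.6 CPM for *Csf3r* among genes of mature neutrophils, 235.9 CPM for *Runx1*, 210.5 CPM for *Spi1* and 124.6 CPM for *Cebpa* among transcription factors, and 184.2 CPM for *Ctsc*, 1.88 CPM for *Serpinb1a* and 0.617 CPM for *Prtn3* among azurophil genes. *Cebpe*, the factor of specific granule genes, had 19 counts in all.

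**Figure D5:**
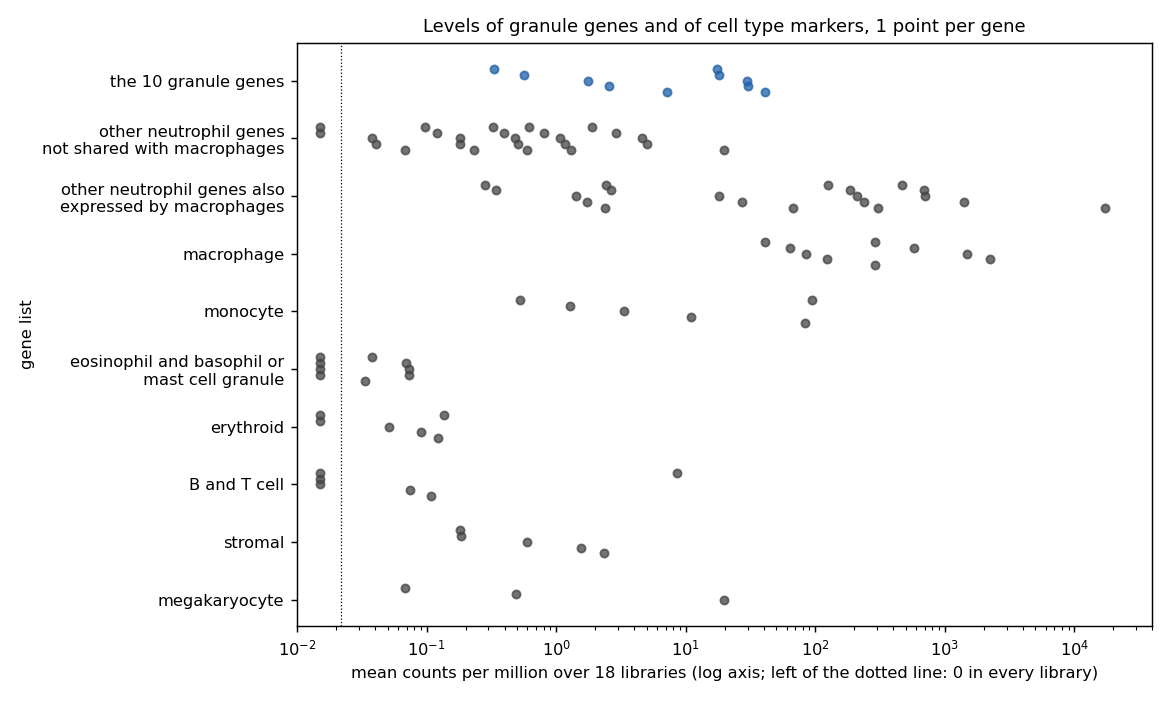
Mean level over the 18 libraries, in CPM on a log axis, with 1 point per gene, of the 10 members and of the genes of each list, and with genes at 0 in every library left of the dotted line. The members lie between 0.333 and 40.9 CPM, macrophage markers between 40.6 and 2234 CPM, and *Ly6g* and *Retnlg* are the neutrophil genes at 0.

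Markers of other cells were measured beside the members. The 6 monocyte markers summed to 176.5 to 251.7 CPM in the wild type libraries across media and 131.2 to 264.8 CPM in knockout libraries, led by *Vcan* (mean 94.7 CPM), *Ccr2* (83.8 CPM) and *F13a1* (11.03 CPM), and *Ly6c2*, the marker of classical monocytes, had 0 to 6 counts. Granule genes of eosinophils, basophils and mast cells summed to 0 to 2 counts per library, with 4 of 9 at 0 throughout, and 6 erythroid genes to 0 to 3 counts. Of the B and T cell genes, 3 of 6 were at 0 throughout and *Ighm* led (mean 8.56 CPM). Stromal genes summed to 0 to 29 counts, led by *Col1a2* (2.33 CPM), and of the megakaryocyte genes *Pf4* was highest (19.9 CPM). Of the tested genes of these lists (6 monocyte, 3 stromal and 1 each of B and T cells and megakaryocytes) and of the 9 macrophage markers, 0 passed edgeR's test or DESeq2 in any comparison without the replicate block. At an unadjusted p under 0.05 there were 0 to 5 macrophage, 0 to 2 monocyte, 0 to 1 stromal, 0 to 1 megakaryocyte and 0 B and T cell genes. With the block, 1 macrophage marker rose with AcLDL in wild type cells, beside 2.16% of all genes called, and 1 fell in knockout cells, beside 2.50%. With OxLDL, 2 rose and 3 fell in each genotype, beside 4.39% in wild type and 7.18% in knockout cells. The 1 megakaryocyte gene tested also rose with OxLDL in wild type cells. In edgeR's test between mice of a genotype, 8 of the 9 macrophage and 2 of the 6 monocyte markers passed. Among all genes the share was 13%. None of the tested stromal, megakaryocyte or B and T cell genes passed between mice. Of the lists given elsewhere, 4 of 6 other S100 genes, 1 of 2 gelatinase and 1 of 12 inflammatory genes passed. Marker levels of other cell types were thus low, apart from monocytes, whose part in the members' levels was not tested.

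Inflammatory genes of macrophages were listed because macrophages can express *Lcn2* and *Mmp9* on stimulation. Of 12 tested, *Acod1*, which encodes the enzyme that makes itaconate, and *Sod2*, a mitochondrial superoxide dismutase, fell in all 4 comparisons with control, by 2.44 to 4.58 and by 0.98 to 1.82 on the log2 scale (edgeR adjusted p at most 7.79e-05 and 0.00175). *Tnf* also fell in knockout cells with OxLDL, by 1.76 (SE 0.30, edgeR adjusted p = 0.00103). The summed level of the list was 276.7 to 356.7 CPM in wild type and 323.1 to 390.7 CPM in knockout controls, and 112.2 to 120.4 CPM and 91.0 to 109.8 CPM with OxLDL. *Lcn2* was at a log2 fold change of 0.03 with OxLDL and -0.47 (SE 0.50) with AcLDL in wild type cells. In knockout cells it was at -1.01 (SE 0.52) with AcLDL and -0.77 (SE 0.51) with OxLDL. No test of *Lcn2* against these genes was made.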

How the data were processed

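Bulk RNA-Seq of BMDMs from 3 knockout and 3 wild type mice in 3 media (18 libraries, 6 groups) was analysed, with groups, media and mouse identities from the labels, and doses, times and ages from the methods of the study. Libraries were made with the SMARTer Stranded Total RNA-Seq v2 Pico kit and sequenced single-end. The authors trimmed reads with Trim Galore in the nf-core pipeline, aligned them with STAR to mm10 and quantified genes on Ensembl release 93. The authors deposited estimated counts per gene from salmon, which are not normalised. Tool versions and the strand setting are not given in the sources used here, and reads rather than molecules were counted.

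Counts were rounded and filtered with filterByExpr (minimum count 2, minimum total count 10, after the study's 10 and 2 counts). edgeR (version 4.0.16, R 4.3.3) was fitted to all 18 libraries in 6 groups with TMM scaling and the quasi-likelihood test (12 residual degrees of freedom, biological coefficient of variation 0.152), and p-values were adjusted over 12290 genes at a threshold of 0.05. Of the 9 comparisons, 7 were between pairs of groups and 2 were differences between genotypes in a response. TMM-scaled CPM were used, with a prior count of 2 on the log2 scale. Values are mean ± SD over 3 mice. Intervals are exact Poisson 95% intervals, and the level that a count of 0 allows is 3 counts. A chi-square test of replicates gave 2.03 to 12.7 per degree of freedom, above counting error. The labels give the same mouse in each medium of a genotype, and deviations from group means of 18 pairs of libraries of 1 mouse had r from 0.065 to 0.404 (median 0.237, 17 over 0.1), so a fit with the mouse as a block was also made. Differences between mice were tested in that fit (4 coefficients). Alternatives were DESeq2 (version 1.42.0), library size alone as scaling, other filters, fits on the compared groups only and each library left out. The fit was tested on simulated data.

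The members and all gene lists were chosen with earlier results of these data known. All members were named, and of each list every gene past the threshold and the 3 of highest mean CPM, with, for each member of at least 5 CPM, the 3 genes of highest correlation. Of lists with most genes near 0 only the highest gene was named. *Olfm4*, *Ctsg*, *Cebpe*, *Ly6c2*, *Ly6g*, *Retnlg* and genes called only with the block were named after their values were seen. Gene positions are from the GRCm38 annotation and promoters from RefSeq.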

Additional observations from a re-analysis of the deposited data

Results flagged for a closer look

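The response of *S100a9* to AcLDL was flagged because it had opposite signs in the genotypes. All 3 wild type mice were higher with AcLDL than in control medium (median difference 0.81 on the log2 CPM scale) and all 3 knockout mice were lower (median -0.73), although knockout mouse 1 differed by -0.04 (27.6 against 28.3 CPM). The fitted difference of the log2 fold changes, knockout minus wild type, was -1.42 (SE 0.66, n = 3 mice per genotype), and it ranged from -1.89 to -0.99 with 1 library left out. It did not pass in the fit used in the report and passed with no filter on low counts. Neither outcome is evidence, since the gene was chosen on these values, so the difference was not tested independently. No other tested member had opposite signs in all mice of both genotypes with either LDL. The share of all genes with such signs was not counted.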

How the results depend on the processing

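Counts of the 29 other neutrophil genes that passed depended on the fit. With 1 library left out, the mean of *S100a8* in knockout controls went from 13.3 to as low as 6.13 CPM, that of *Mmp8* from 14.9 to 7.29 CPM, and that of *Lcn2* in knockout cells with AcLDL from 4.47 to 1.98 CPM. For AcLDL in wild type cells, 0 passed, against 1 with DESeq2, 1 with no filter on low counts and 3 with the replicate block by mouse. For OxLDL in wild type cells, 1 passed, against 2 with DESeq2, 2 with no filter, 0 with only the groups compared and 5 with the block. For AcLDL in knockout cells, 0 passed, against 1 with DESeq2, 1 with no filter, 3 with only the groups compared and 4 with the block. For OxLDL in knockout cells, 3 passed, against 1 with library size alone, 5 with only the groups compared and 6 with the block. For knockout against wild type in control medium, 0 passed, against 1 with DESeq2, 1 with no filter and 1 with a block by replicate number, and with OxLDL 1 passed, against 2 with no filter and 0 with only the groups compared. Between mice, 9 passed, against 5 with DESeq2. The cause of these changes was not tested. With 1 library left out, the counts were 0 for AcLDL in both genotypes, 1 to 2 for OxLDL in wild type and 0 to 1 in knockout cells, 0, 0 to 1 and 0 to 1 between genotypes in control medium, with AcLDL and with OxLDL, 0 for both differences of responses, and 4 to 10 between mice, with 4 without wild type mouse 1. *Lyz2* lost its call with AcLDL without wild type library 3 or any 1 knockout library, and with OxLDL without wild type library 1 or 3 or knockout library 2 or 3. *Anxa1* lost its call without the knockout control of mouse 2 or the OxLDL library of mouse 1 or 3, and *Ctsc* and *Spi1* without any 1 of the 6 knockout libraries. Over all genes, no filter gave 176, 337, 188 and 491 calls for the comparisons of media (AcLDL and OxLDL in wild type, then in knockout cells), against 58, 165, 64 and 285, only the groups compared gave 33, 65, 194 and 751, and the block gave 265, 539, 307 and 882. Between genotypes, 1, 2 and 1 genes passed in control medium, with AcLDL and with OxLDL, against 28, 45 and 34 with no filter. For the differences of responses no gene passed, against 18 and 15 with no filter and 5 and 0 with the block. With no filter, *S100a9* passed for AcLDL in wild type cells, 3 members for OxLDL, 2 and 1 in knockout cells, 4 and 3 members between the genotypes with AcLDL and OxLDL, and *Ngp* and *S100a9* for the difference of the AcLDL responses. *Mmp8* passed for OxLDL in knockout cells with only the groups compared. With the block, *S100a9* passed for AcLDL and *Mmp8*, *Ngp* and *S100a9* for OxLDL in wild type cells, *Ngp* and *S100a8* for AcLDL and *Mmp8* for OxLDL in knockout cells, and *Ngp* for the difference of the AcLDL responses. Nothing is read from these calls, since members were chosen on these libraries. Apart from values near 0, *Mmp8* with OxLDL against control and *Ngp*, *Ltf*, *S100a8* and *S100a9* with OxLDL in wild type cells, with AcLDL in knockout cells and between genotypes with either LDL kept their sign under all settings. Depth limited *Mpo*, *Elane*, *Camp* and *Mmp9*, whose counts were at or under 3 in most libraries.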
